A study of Mus musculus with 6 samples.

Results

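Oocyte transcription regulators are the proteins that switch on and maintain the gene programme of the egg cell, and 8 of them were followed here in mouse ovarian secondary follicles: Sohlh1, Sohlh2, Figla, Lhx8, Nobox, Pou5f1, Taf4b and Ybx2. They were taken by name, as the probe sets annotated with 1 of these gene symbols alone. All 8 were measured, by 10 probe sets, among 18193 genes and 34945 probe sets tested. Secondary follicles were dissected mechanically from ovaries of specific pathogen-free C57BL/6J females, with no treatment labelled, at 9 weeks (young) and at 32 weeks (old). Each age had 3 samples labelled as biological replicates, each on its own Affymetrix 3' expression array. The sources used here do not give the number of mice or follicles behind a sample, and p-values therefore measure the spread between these samples. A whole follicle holds the oocyte together with granulosa and outer cells, and fewer oocyte transcripts per follicle cannot be told apart from more RNA of the surrounding cells.

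Oocyte gene expression depends on a small set of factors that act in turn. SOHLH1 and SOHLH2 are basic helix-loop-helix proteins of early oocytes, needed for the growth of primordial follicles. FIGLA, of the same family, pairs with the E protein encoded by Tcf3 and drives the zona pellucida genes from E-boxes, short DNA motifs written CANNTG. LHX8 and NOBOX are homeodomain proteins without which mouse oocytes are lost early. POU5F1, also known as OCT4, is kept in growing oocytes and in pluripotent cells. TAF4B is the germ cell form of the TFIID subunit TAF4. YBX2, known as MSY2 in the mouse, binds DNA at Y-boxes and above all binds and stores messenger RNA in growing oocytes.

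To place the E-box beside the values, the 250 bases before a transcription start were read from RefSeq windows (GRCm38.p6), which matched 7 of the 8 regulators with 9 windows. E-boxes are in capitals, and each sequence is written 5′ to 3′ on the strand of the gene. Sohlh1 is shown because it held the most E-boxes, Figla, Lhx8 and Ybx2 because their RNA was lower in the old samples.
Sohlh1 (chr2:25847249-25847498, minus strand): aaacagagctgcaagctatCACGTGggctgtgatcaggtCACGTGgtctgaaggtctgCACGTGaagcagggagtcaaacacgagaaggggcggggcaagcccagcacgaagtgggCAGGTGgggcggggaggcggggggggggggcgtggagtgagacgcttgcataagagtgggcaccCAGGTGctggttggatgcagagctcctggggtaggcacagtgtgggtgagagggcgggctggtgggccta
Figla (chr6:86016941-86017190, plus strand): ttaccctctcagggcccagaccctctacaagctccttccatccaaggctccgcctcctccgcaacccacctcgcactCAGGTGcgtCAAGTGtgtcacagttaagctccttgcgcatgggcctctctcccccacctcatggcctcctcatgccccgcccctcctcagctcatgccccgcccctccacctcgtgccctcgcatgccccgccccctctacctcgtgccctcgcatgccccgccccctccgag
Lhx8 (chr3:154330561-154330810, minus strand): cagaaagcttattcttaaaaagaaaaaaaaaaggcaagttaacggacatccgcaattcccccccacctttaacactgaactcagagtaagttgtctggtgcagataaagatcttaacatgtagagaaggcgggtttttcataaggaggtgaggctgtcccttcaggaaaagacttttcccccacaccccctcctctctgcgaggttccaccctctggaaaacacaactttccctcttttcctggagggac
Ybx2 (first of 2 windows, chr11:69935649-69935898, plus strand): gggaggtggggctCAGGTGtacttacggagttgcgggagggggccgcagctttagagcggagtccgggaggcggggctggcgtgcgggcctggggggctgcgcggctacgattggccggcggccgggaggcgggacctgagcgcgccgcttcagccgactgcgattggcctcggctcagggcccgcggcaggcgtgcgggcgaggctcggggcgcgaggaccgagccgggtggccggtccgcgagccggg
The Sohlh1 window held 5 E-boxes, 3 of them CACGTG, the Figla window 2 that lay 9 bases apart, and the Lhx8 window 0. The 2 windows of Ybx2 held 1 and 0, that of Nobox 2, that of Sohlh2 1, and those of Pou5f1 1 and 2. E-boxes read the same on both strands, and 7 of 9 windows held at least 1, against 66.2% of 32851 windows of the same length. The homeodomain motifs TAATTG (searched on both strands) and TAATTA (which reads the same on both) were in 0 of the 9 windows, against 7.2% and 4.8% of all windows. A match describes letters only, and no binding was measured.

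The arrays of each age lay close together, with a median SD of 0.089 within groups over all genes (log2 intensity). The control genes differed between the ages. The 3' probe set of Gapdh exceeded its 5' probe set by 0.47 ± 0.014 at 9 weeks and 1.51 ± 0.0048 at 32 weeks (log2, SD, n = 3 each), and for beta-actin the values were 1.48 ± 0.033 and 2.53 ± 0.050. An exact permutation test (two-sided) gave p = 0.1 for both, which is the smallest p possible with 3 samples against 3. Where the probe sets of the regulators lie on their transcripts was not analysed here, and the part of this difference in the results was not tested.

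Of the 8 regulators, Figla, Lhx8, Taf4b and Ybx2 were lower in the old follicles, by 15.8% to 24.7% of the young level. The other 4, Sohlh1, Sohlh2, Nobox and Pou5f1, did not pass the test. Old samples were set against young ones by limma's moderated test, two-sided, with Benjamini-Hochberg adjustment over all 18193 genes, each gene represented by its brightest probe set. With the adjusted p at or below 0.05, 4 of 8 regulators were lower and 0 were higher, where 13.3% of all genes were lower and 10.1% were higher. None reached the study's additional minimum of a 2-fold change, which 0.126% of all genes passed downward and 0.638% upward. At an unadjusted p under 0.05 the number was also 4, but the share of all genes at that threshold was not counted. SAM, the other test run, found 4 lower as well, beside 2043 of all 18193 genes. The median log2 fold change of the 8 was -0.19, against -0.0042 over all genes. The 95% intervals of the 8 ran from -0.54 at the lowest bound to 0.34 at the highest, so a 2-fold change lay outside every one.

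**Figure D1:**
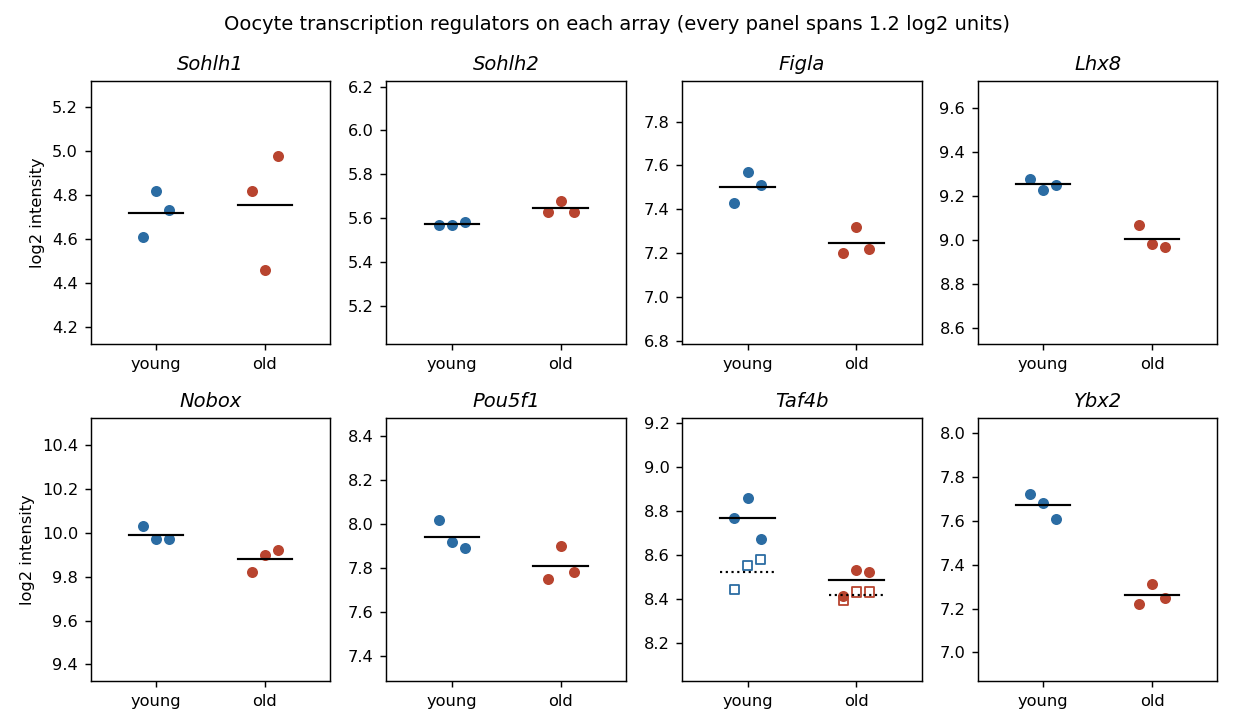
Log2 intensity (vertical axis) of each regulator on the 3 young (blue) and 3 old (red) arrays, with a line at the mean of 3, points side by side in replicate order, and open squares with dotted lines for the second probe set of Taf4b. The dimmest probe set of Taf4b is not drawn. The old samples lie below the young ones without overlap for Figla, Lhx8, Nobox, Taf4b and Ybx2, as they do for 23.7% of all genes. For Sohlh2 the old samples lie above the young ones without overlap, and for Sohlh1 and Pou5f1 the ages overlap.

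Among the basic helix-loop-helix factors, Figla was lower in the old samples and the pair of SOHLH genes did not pass the test. Figla (probe set 1450369_at) read 7.43, 7.57 and 7.51 on the young arrays (log2 intensity) and 7.20, 7.32 and 7.22 on the old arrays. Every old sample was below every young sample. The log2 fold change was -0.26 (standard error 0.06, 95% interval -0.41 to -0.12, adjusted p = 0.022 from limma), or 16.5% lower. Sohlh1 (1460015_at) read 4.61, 4.82 and 4.73 at 9 weeks and 4.82, 4.46 and 4.98 at 32 weeks. Its old samples held both the lowest and the highest of the 6 values, with an SD of 0.26, the widest of any regulator. Its change was 0.04 (standard error 0.13, 95% interval -0.27 to 0.34, adjusted p = 0.87). Sohlh2 (1429817_at) lay at 5.57, 5.57 and 5.58 at 9 weeks and at 5.63, 5.68 and 5.63 at 32 weeks. The old values were above the young ones without overlap, but by 0.07 only (standard error 0.05, 95% interval -0.04 to 0.19, adjusted p = 0.32). Both SOHLH probe sets were dim, near the array median, which was between 4.93 and 4.95 on the 6 arrays.

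Of the homeodomain factors, Lhx8 was lower in the old samples and Nobox did not pass the test. Lhx8 (1427300_at) read 9.28, 9.23 and 9.25 on the young arrays and 9.07, 8.98 and 8.97 on the old arrays (log2 intensity). The young samples lay close together and the groups did not overlap. The log2 fold change was -0.25 (standard error 0.05, 95% interval -0.37 to -0.12, adjusted p = 0.016), or 15.8% lower. Nobox (1425759_at) read 10.03, 9.97 and 9.97 at 9 weeks and 9.82, 9.90 and 9.92 at 32 weeks. The 3 old values were again the lowest, yet the difference of -0.11 (standard error 0.05, 95% interval -0.24 to 0.02) gave an adjusted p of 0.19. Old samples below young ones without overlap were found for 5 of the 8 regulators, and for 23.7% of all genes. Pou5f1 (1417945_at), the POU-domain factor, read 8.02, 7.92 and 7.89 at 9 weeks and 7.75, 7.90 and 7.78 at 32 weeks. Its groups overlapped through old replicate 2, and the change of -0.13 (standard error 0.06, 95% interval -0.28 to 0.02) gave an adjusted p of 0.18.

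Taf4b, the TFIID subunit of germ cells, was lower at its brightest probe set (1435302_at), with 8.77, 8.86 and 8.67 on the young arrays and 8.41, 8.53 and 8.52 on the old arrays (log2 intensity). No old sample reached a young one, and the log2 fold change was -0.28 (standard error 0.07, 95% interval -0.44 to -0.12, adjusted p = 0.026), or 17.4% lower. A second probe set (1435303_at) read 8.44, 8.55 and 8.58 at 9 weeks and 8.39, 8.43 and 8.43 at 32 weeks. Its groups did not overlap either, but the change was -0.10 (standard error 0.06), with an adjusted p of 0.28 over all 34945 probe sets. On each array the brighter one exceeded the second by 0.34, 0.31 and 0.08 at 9 weeks and by 0.02, 0.10 and 0.10 at 32 weeks. The ages overlapped in this difference, which moved by -0.17 (exact two-sided permutation test, p = 0.3). The dimmest probe set of Taf4b (1431193_at) was dim, between 3.31 and 3.69 on the 6 arrays, and changed by -0.10 (standard error 0.10, adjusted p = 0.52). Counted by probe set, 4 of 10 were lower, against 13.8% of all probe sets.

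Ybx2, which encodes the storage protein of oocyte messenger RNA, had the largest change of the 8. Its 1 probe set (1420762_a_at), of a kind that matches several transcripts of a gene, read 7.72, 7.68 and 7.61 on the young arrays and 7.22, 7.31 and 7.25 on the old arrays (log2 intensity). The gap between the lowest young and the highest old sample was wider than the range within either age. The log2 fold change was -0.41 (standard error 0.06, 95% interval -0.54 to -0.28, adjusted p = 0.0028), or 24.7% lower, and 4.3% of all genes changed by as much or more downward.

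How many regulators passed depended on single samples and on scaling. Ybx2 passed in all 15 alternatives that left the scale to the arrays themselves and held its probe set, with changes from -0.44 to -0.34. Lhx8 passed in 15 of 16, failing without old replicate 3 (-0.23, adjusted p = 0.062). Figla passed in 10 of 16 and Taf4b in 9 of 16, with adjusted p-values up to 0.082 and 0.087 where they failed. Without old replicate 3, Ybx2 alone was lower (adjusted p = 0.015), without young replicate 2 or old replicate 1 there were 2, and without young replicate 1 or young replicate 3 there were 3. Of all 18193 genes, 1478 were lower without old replicate 3. The number was 1516 without young replicate 2 and 1690 without old replicate 1. It was 1798 without young replicate 1 and 1756 without young replicate 3. Averaging its 3 probe sets gave Taf4b a change of -0.16 (adjusted p = 0.074). After quantile or cyclic loess normalization Figla was at -0.19 by both and Taf4b at -0.22 and -0.21, with adjusted p-values between 0.053 and 0.063, and 2 regulators, Lhx8 and Ybx2, were lower. Beside them, 2166 of all 18193 genes were lower after quantile and 1988 after cyclic loess normalization.

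Markers of the oocyte itself were lower in the same samples. Of 12 oocyte markers, 11 were lower, none was higher and their median log2 fold change was -0.33, and Ooep, of the subcortical maternal complex, did not pass. Over all genes 13.3% were lower and 10.1% were higher, the shares to set beside this and each marker count below. The kinase gene Mos was at -0.63, Zp3 at -0.54, the germ cell helicase Ddx4 at -0.54 and the maternal-effect gene Zar1 at -0.36. The summed intensity of these 12 genes ran from 28667 to 29552 on the young and from 24046 to 24561 on the old arrays. Taken array by array, the median of the 12 markers was between 11.15 and 11.18 in the young and between 10.84 and 10.89 in the old samples, a difference of -0.30. Of 11 granulosa markers, 2 were lower, the KIT ligand gene Kitl (-0.43) and Gatm of creatine synthesis (-0.75), none was higher, and the median was 0.03, with sums of 32049 to 32443 and 31494 to 32507. Markers of outer and other cells were higher in part. All 6 surface epithelium markers were higher (median 0.89, sums of 692 to 728 on the young and 961 to 1008 on the old arrays), led by Krt19 (1.55), Upk3b (1.17) and Upk1b (1.04). Of 11 macrophage markers 7 were higher, among them Ctss (1.36) and Mpeg1 (1.30), and 1 was lower (median 0.70, sums of 410 to 411 and 632 to 671). The lower one was Lyz2 (-0.323), while Adgre1 (0.205), Cd68 (0.198) and Cd14 (-0.072) did not pass, all named after their values were seen. Of 5 smooth muscle markers 3 were higher, with Tagln at 1.06 (median 0.41, sums of 751 to 821 and 1228 to 1259). Of 5 measured theca markers, the steroidogenic genes Star (1.88) and Cyp11a1 (1.34) were higher (median 0.04, sums of 4787 to 4950 and 5196 to 5225). Cyp17a1 (-0.11), Hsd3b1 (0.04) and, named after its value was seen, Ptch1 (-0.02) did not pass. Of 5 endothelial markers Kdr was higher (0.41) and none was lower (median 0.15, sums of 141 to 147 and 156 to 171). Tek (0.175), Cdh5 (0.149), Pecam1 (-0.224) and, named after its value was seen, Vwf (-0.054) did not pass. No marker was at 0, since RMA gives none, and the part of these cells in the results was not tested.

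**Figure D2:**
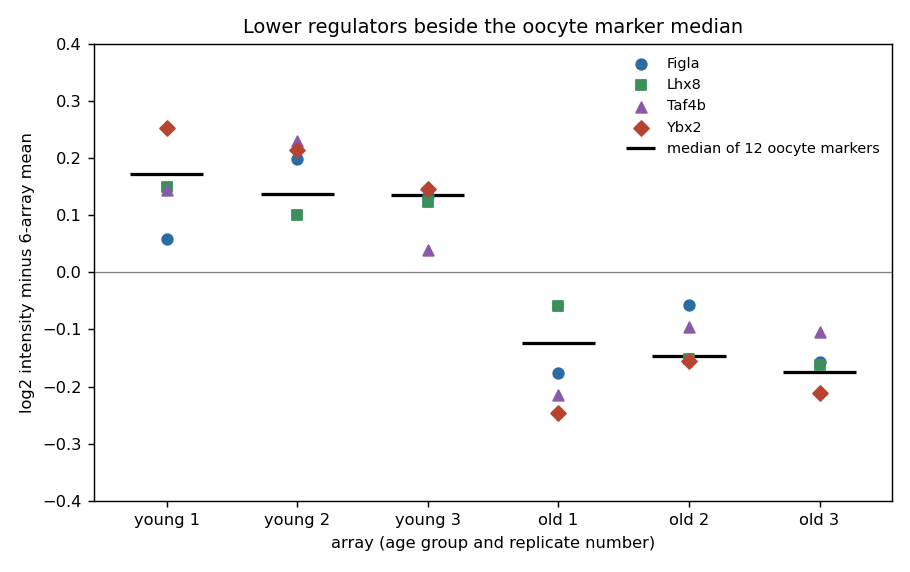
Log2 intensity minus its mean over the 6 arrays (vertical axis) for the 4 lower regulators (coloured points) and for the median of 12 oocyte markers (black lines) on each array (horizontal axis). Regulators and marker median are all above 0 on the 3 young and below 0 on the 3 old arrays, where the marker median lies between -0.12 and -0.18.

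Set against those oocyte markers, none of the 8 regulators was lower in the old samples. For this comparison, added after the values had been seen, each array was centred on its median over the 12 markers, which moved the median of all genes to 0.29. On this scale Figla was at 0.04 (95% interval -0.12 to 0.19, adjusted p = 0.64), Lhx8 at 0.05 (-0.07 to 0.17, adjusted p = 0.41) and Taf4b at 0.02 (-0.15 to 0.19, adjusted p = 0.80). Ybx2 stayed below 0 at -0.11, with an interval from -0.24 to 0.02 and an adjusted p of 0.11. Sohlh2 (0.37, adjusted p = 0.0011), Nobox (0.19, adjusted p = 0.023) and Pou5f1 (0.17, adjusted p = 0.046) were higher relative to the markers, and Sohlh1 was at 0.33 (adjusted p = 0.059). Centring adds the same amount to the change of every gene. Sohlh2, which was dim, Nobox and Pou5f1 had not passed on the deposited scale, so these p-values speak of a difference from the markers only. On the same scale 2.62% of all genes were lower and 67.8% were higher, beside 0 lower and 3 higher of the 8 regulators. The intervals do not carry the choice of the 12 markers, and whether 2 regulators differ from each other was not tested.

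**Figure D3:**
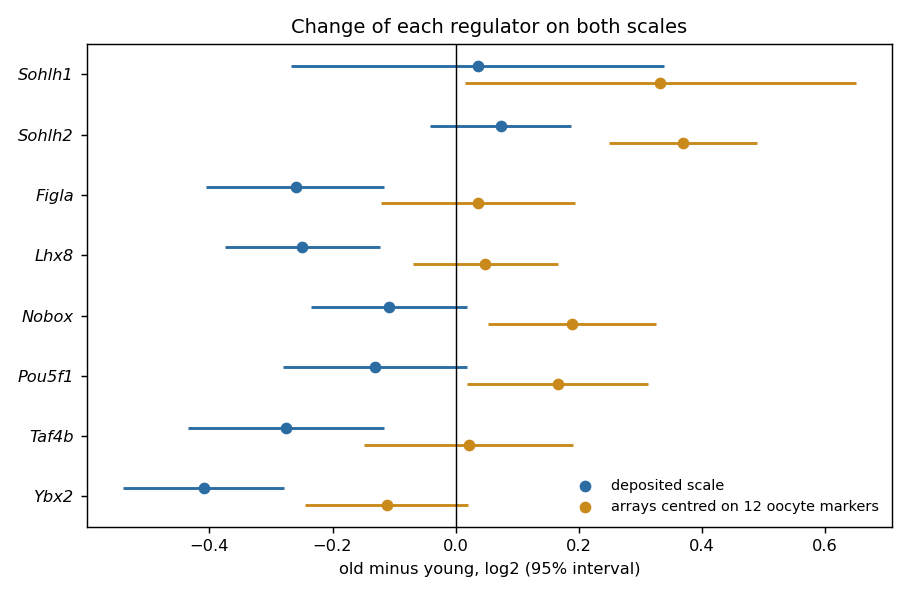
Old minus young log2 intensity (horizontal axis) with its 95% interval for each regulator, on the deposited scale (blue) and with arrays centred on 12 oocyte markers (ochre). The intervals of Figla, Lhx8, Taf4b and Ybx2 lie below 0 on the deposited scale and include 0 after centring.

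Among the partners of the helix-loop-helix factors, Tcf3 was lower and Id4 higher in the old samples. Of 7 genes for E proteins and ID proteins, which bind E proteins and keep them off DNA, 1 was lower, 1 was higher and 5 did not pass (median -0.02, turning to 0.03 after quantile or cyclic loess normalization), where 13.3% of all genes were lower and 10.1% higher. Tcf3, whose E protein pairs with FIGLA, averaged 9.16 ± 0.023 at 9 weeks and 8.59 ± 0.097 at 32 weeks (log2 intensity with SD, n = 3), which is -0.57 (standard error 0.06, adjusted p = 0.0013). Its other 2 probe sets were at -1.20 and -0.82, both past the test over all probe sets, and centred on the oocyte markers it was still at -0.27 (adjusted p = 0.0072). Id4 rose by 0.45 (standard error 0.09, adjusted p = 0.012). Among its 2 dimmer probe sets, 1 was at 0.39 and the other at -0.07, and neither passed. The E protein genes Tcf4 and Tcf12, named after their values were seen, were both at -0.02, and Id3 was at 0.08. After centring, 1 of the 7 was lower and 5 were higher, against 2.62% and 67.8% of all genes.

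LIM-homeodomain proteins such as LHX8 work through LDB and SSBP cofactors, which LMO proteins compete for. Of 13 genes taken by the names Ldb, Ssbp, Lmo and Lhx, which need not all act with LHX8, 2 were lower, 1 was higher and 10 did not pass (median -0.10). Over all genes 13.3% were lower and 10.1% higher. Ldb2, Lmo3, Lhx1, Lhx2 and Lhx9, named after their values were seen, were among the 10 and lay below the array median, where little signal is measured. After quantile and after cyclic loess normalization 1 was lower. Lmo4 was at -0.60 (standard error 0.08, adjusted p = 0.0023) and Ldb1, the shared cofactor, at -0.27 (adjusted p = 0.033). Lmo2 went the other way, from 5.27 ± 0.075 to 5.98 ± 0.048, an increase of 0.71 (standard error 0.06, adjusted p = 4.2e-04). The brightest probe set of Ssbp3 was at -0.17 (adjusted p = 0.053) and a dimmer one at -0.86. Relative to the oocyte markers Lmo4 was at -0.31 (adjusted p = 0.0077) and Ldb1 at 0.02 (adjusted p = 0.75), and of the 13 genes 1 was lower and 8 were higher, where 67.8% of all genes were higher.

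TFIID is the complex that places RNA polymerase II at promoters and of which TAF4B is an alternative subunit. Of 16 measured genes for the other subunits, TBP and their paralogs, 5 were lower, none was higher and 11 did not pass (median -0.11, or -0.06 with 4 lower after quantile and after cyclic loess normalization), beside 13.3% of all genes lower. Taf9b, a paralog of Taf9, went from 7.23 ± 0.21 to 6.47 ± 0.038, a change of -0.76 (standard error 0.10, adjusted p = 0.0028). Taf4, the general counterpart of Taf4b, went from 7.47 ± 0.11 to 6.89 ± 0.11, a change of -0.58 (standard error 0.08, adjusted p = 0.0031), and its second probe set was at -0.61. Taf11 (-0.47), Taf12 (-0.34) and, named after its value was seen, Taf2 (-0.23) were the other lower subunits. Taf10 was at 0.00 and Tbp at -0.23 (adjusted p = 0.069), both named in the same way. Centred on the oocyte markers, Taf9b (-0.46), Taf4 (-0.28) and Taf11 (-0.17) were lower and 8 of the 16 were higher, against 2.62% and 67.8% of all genes.

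Around POU5F1, 4 of 19 measured genes of the pluripotency network were lower, 3 were higher and 12 did not pass (median 0.03), where 13.3% of all genes were lower and 10.1% higher. After quantile and after cyclic loess normalization 4 were lower and 2 higher. Klf4 rose by 1.31 (standard error 0.06, adjusted p = 2.8e-05) and Klf2 by 1.18 (standard error 0.07, adjusted p = 1.2e-04), Krüppel-like factors that many cell types express. Both probe sets of Klf4 rose, the second by 1.23. The orphan receptor gene Esrrb was at -0.50 (adjusted p = 0.0042, with dimmer probe sets at -0.17 and 0.00 that did not pass) and Lin28a, whose product binds let-7 precursors, at -0.35 (adjusted p = 0.0049). Dppa5a (-0.32), Sall4 (-0.30) and the dim Nanog (0.36), named after their values were seen, were the others that passed. Relative to the oocyte markers, Esrrb was at -0.20 (adjusted p = 0.027) and Lin28a at -0.05 (adjusted p = 0.44), and of the 19 genes 1 was lower and 13 were higher, where 67.8% of all genes were higher. Several of the 19 lay well below the array median, among them Prdm14, Sox2 and Zfp42, and Nr5a2 is also a granulosa marker here (all named after their values were seen). The counts are therefore not all of genes with a clear oocyte signal.

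Genes listed for the storage, use or turnover of oocyte messenger RNA, which need not all act with YBX2, were mostly lower. Of 15 measured, 10 were lower, none was higher and 5 did not pass (median -0.32), beside 13.3% of all genes lower, and quantile and cyclic loess normalization left 10 and 9 lower. The helicase gene Ddx6 went from 10.09 ± 0.026 to 9.51 ± 0.034, a change of -0.58 (standard error 0.05, adjusted p = 4.6e-04), though its dimmer probe sets were at -0.28, 0.01 and -0.27. Cpeb1, whose product binds the cytoplasmic polyadenylation element, was at -0.57 (standard error 0.05, adjusted p = 5.6e-04), and Patl2, a repressor of translation in oocytes, at -0.50 (standard error 0.07, adjusted p = 0.0030). Ybx1, the widely expressed relative of Ybx2, was at -0.37 (adjusted p = 0.0032) and Ybx3 at -0.01 (adjusted p = 0.94), both named after their values were seen. Centred on the oocyte markers, 4 of the 15 were lower, Ddx6 (-0.28), Cpeb1 (-0.27), Ddx4 (-0.24) and Patl2 (-0.20), and 5 were higher, against 2.62% and 67.8% of all genes. Zar1, Ddx4 and Dazl of this list are also oocyte markers, so the 2 lists are not separate evidence.

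**Figure D4:**
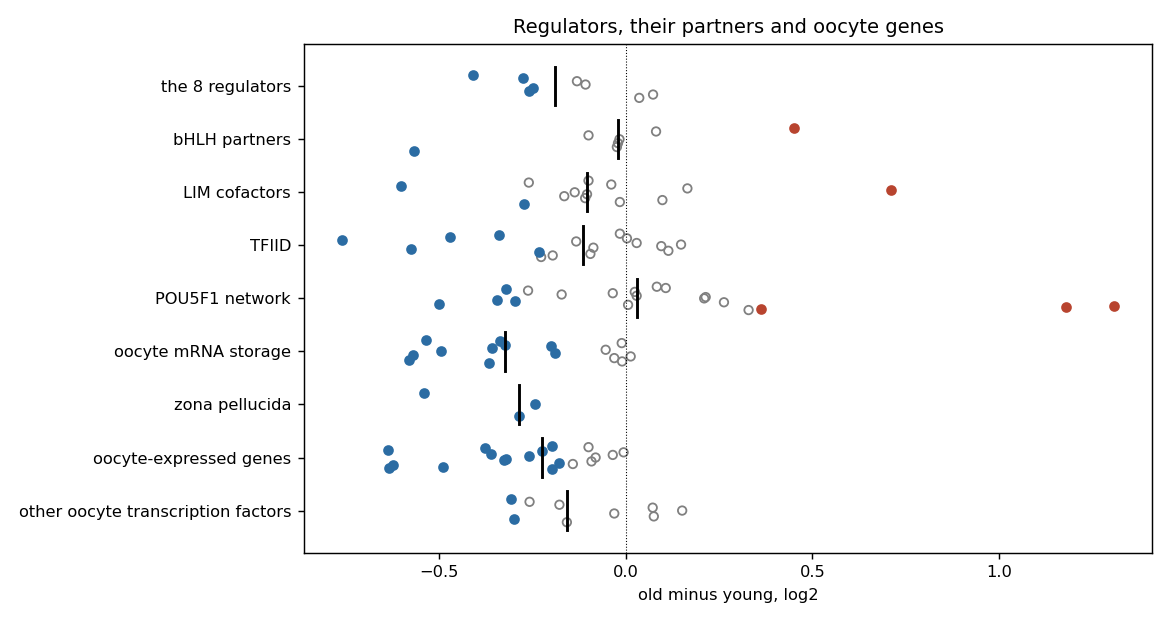
Old minus young log2 intensity (horizontal axis) of each gene, 1 point per gene, for the 8 regulators and the partner and oocyte lists, with a black line at each list's median. Blue points passed the test as lower and red points as higher, and open points did not pass. The 8 regulators have a median of -0.19, and the lists of zona pellucida and oocyte mRNA storage genes have medians of -0.29 and -0.32.

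The zona pellucida genes and other genes of the growing oocyte were mostly lower. All 3 zona pellucida genes, which FIGLA activates, were lower, with Zp1 at -0.29 (standard error 0.05, adjusted p = 0.0079), Zp2 at -0.24 (standard error 0.06, adjusted p = 0.020) and Zp3 at -0.54 (standard error 0.05, adjusted p = 7.5e-04). Figla itself was at -0.26, between Zp1 and Zp2, and whether its change bears on theirs was not tested. After centring on the oocyte markers, a list that holds these 3, Zp1 and Zp2 were at 0.01 and 0.05 and Zp3 at -0.24 (adjusted p = 0.0055). Of 19 other measured genes of the growing oocyte, 13 were lower, none was higher and 6 did not pass (median -0.22), beside 13.3% of all genes lower. After centring 4 were lower and 5 higher, against 2.62% and 67.8% of all genes. Gdf9, Bmp15, Mos, Dppa3, Nlrp5 and Ooep of this list are also among the 12 oocyte markers. Khdc3 of the subcortical maternal complex (-0.64, standard error 0.05, adjusted p = 2.7e-04), Mos, the receptor gene Kit (-0.49, standard error 0.05, adjusted p = 9.4e-04) and Uchl1 (-0.38) had the smallest p. The dimmer probe set of Kit was at 0.01. Gdf9 and Bmp15, growth factor genes of the oocyte named after their values were seen, were at -0.20 (adjusted p = 0.026) and, with an SD of 0.27 among the old samples, at -0.64 (adjusted p = 0.011).

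Of 9 other oocyte transcription factors, 2 were lower, none was higher and 7 did not pass (median -0.16, or -0.09 after quantile and after cyclic loess normalization), where 13.3% of all genes were lower. The homeobox gene Obox2 was at -0.30 (standard error 0.05, adjusted p = 0.0080) and its second probe set at -0.31, although both probe sets can match related transcripts. Gtf2a1l, the germ cell form of a TFIIA subunit, was at -0.31 (standard error 0.07, adjusted p = 0.026). Nr6a1 and Zfp57 were at -0.16 and -0.18 and did not pass, although a second probe set of Nr6a1 did (-0.29, adjusted p = 0.017 over probe sets). Foxo3, which holds primordial follicles dormant and was named after its value was seen, was at 0.07 (adjusted p = 0.45). After centring on the oocyte markers 0 of these 9 were lower and 4 were higher, against 2.62% and 67.8% of all genes.

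The genes nearest in pattern to the 4 lower regulators were sought over the 6 samples. Among 9675 other genes with a mean log2 intensity of at least 6, likeness was taken as the root mean square difference between values centred on each gene's mean. Closest to Figla were Cog6 and Zfp449 (0.020 each), closest to Lhx8 were Senp5 and Atpaf1 (0.019 each), closest to Taf4b were Tbc1d5 (0.014) and Lrrn1 (0.025), and closest to Ybx2 were Piga (0.015) and Anxa3 (0.016). These differences were smaller than the median SD within groups, which follows from picking the closest of 9675 genes over 6 values. No oocyte marker was among the 8 genes. With only 12 such markers on the list, this says nothing about likeness to oocyte genes.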

How the data were processed

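RNA of secondary follicles was measured in 6 samples, 3 young (9 weeks) and 3 old (32 weeks). The authors processed the arrays with RMA (version not given in the sources used here). The deposited values were intensity on a linear scale, of which log2 was taken with no pseudocount. Precision is limited by the number of arrays. The submitters' notes give no genome build.

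Probe sets were named from the platform's annotation, and symbols were updated by gene ID through RefSeq names of GRCm38.p6 (99.1% of 18195 IDs held). Of 45101 probe sets, 34958 had 1 symbol, 932 several and 9211 were not listed. The fits left out 64 control probe sets. The brightest probe set by mean stood for each gene. Levels were not compared between genes, and between probe sets of 1 gene only as a difference on each array. Old and young were compared with limma 3.58.1 (eBayes after lmFit, run in R 4.3.3), two-sided with Benjamini-Hochberg adjustment, over all 18193 genes, and again over all 34945 probe sets. A plain pass means an adjusted p of at most 0.05, and the study's rule adds a fold of at least 2. SAM was written anew with all 20 assignments of the labels. The fits were tested on simulated data.

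The regulators and lists were chosen with earlier results of these data known. Named genes were every regulator, in each list up to 4 genes with the smallest p and any gene past the study's rule, and the 2 nearest profiles of each lower regulator. Others are said to be named after their values were seen. Of the listed genes, Tbpl2, Taf9, Eif4e1b, Zar1l, Npm2, Oog1, Oas1d, Obox1, Cyp19a1, Lhcgr and Insl3 were not analysed here. Protein sequences and a promoter of Taf4b were not used here. No batch is labelled.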

Additional observations from a re-analysis of the deposited data

How the results depend on the processing

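Of 8 regulators, 4 were lower by limma with the brightest probe sets. The number was 2 after quantile and 2 after cyclic loess normalization (beside 2166 and 1988 of all 18193 genes), and from 1 to 4 when each sample was left out in turn. Figla and Taf4b lost the test in most of these and Lhx8 without old replicate 3. Centring on the oocyte markers, chosen after seeing the data, gave 0 lower and 3 higher, with Figla at 0.036, Lhx8 at 0.048, Nobox at 0.189, Pou5f1 at 0.166 and Taf4b at 0.021, and over all genes 12326 higher and 477 lower at any fold, and 249 and 12 at a 2-fold change. The median gene moved to 0.29 by construction. Sohlh1, never past the test, went to -0.016 after quantile normalization and ran from -0.076 to 0.181 with a sample left out. Over all genes, 1835 were higher and 2422 lower at any fold, and from 1137 to 1471 and from 1478 to 2153 with a sample left out. At a 2-fold change 116 were higher and 23 lower, against 13 lower on averaging each gene's probe sets, and 383 and 234 at a fold of 1.5. The cause of these changes was not tested, except that fewer samples were fitted or a lower fold was asked. A filter at a mean log2 of at least 5 removed Sohlh1, and leaving out probe sets shared between transcripts removed Ybx2. With the replicate number as a block, 4 regulators were lower (adjusted p from 0.013 to 0.045), and over all genes 1496 were higher and 1910 lower. The labels link same-numbered samples by the number only. Their deviations from the group means correlated at 0.053, 0.00 and 0.043, and those of differently numbered samples at -0.085 to 0.063. With 3 samples per age, these values cannot show whether same-numbered samples were handled together. The block changed no call for a regulator. No single regulator reached a fold of 1.5 in any sample left out or scaling tried.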
